A study of Rattus norvegicus with 24 samples.

Results

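Of 8439 autosomal CpG island probes that were methylated in each of 3 normal mammary glands of rats, 72 (0.853%) read as unmethylated in 1 to 5 of 21 mammary carcinomas. They lay in 54 of 13903 CpG islands, an island being a run of probes with starts at most 1000 bp apart, and 1962 islands held a probe methylated in the glands. The array held 93024 non-control probes, 89403 of them on chromosomes 1 to 20. The measure was the log2 ratio of Cy5 over Cy3, centered on the median of each array, where Cy5 labeled DNA bound by a methyl-CpG binding domain protein and Cy3 labeled the unenriched DNA of the same sample. A probe was a member when this log2 ratio was over 2 in every gland and under 0.5 in 1 to 5 tumors, and a member under 0.5 in a given tumor is called a low call. These values chose the probes, so the fall from gland to tumor at members is a description and has no test. Of the other probes methylated in the glands, 8361 were under 0.5 in 0 tumors and 6 in 6 or more.

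All samples came from female Sprague-Dawley rats fed a corn oil diet after 9 weeks of age. The 3 normal mammary glands (n = 3) and the spontaneous carcinomas (n = 7) came from rats that were not irradiated. Rats of the IR-3W group (n = 7) received 2 Gy of whole-body gamma rays before puberty, at 3 weeks of age, and rats of the IR-7W group (n = 7) the same dose after puberty, at 7 weeks. IR-3W tumors 6 and 7 came from 1 rat, as did IR-7W tumors 1 and 2, and each other sample came from a rat of its own. Tumors and glands were measured as bulk tissue, so loss of methylation in every cell and a change in the share of cells that carry it cannot be told apart.

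Methylation of cytosine in CpG pairs is copied to the new strand when DNA replicates. CpG islands are dense in such pairs and mostly unmethylated in normal tissue, and those that are methylated include imprinted regions and genes silent outside the germ line. Tumors are known both for gaining methylation at islands that were free of it and for losing it elsewhere, and a loss that arises in the founder of a tumor is inherited by its descendants. The probes are placed on the rn4 rat assembly and are named by position here, because gene annotation of that build was not used here, so the lists of imprinted, germ line and developmental genes could not be applied.

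A few arrays stood apart. Normal gland 2 had the lowest value of the 3 glands at 63 of the 72 members, and its median over members was 2.30, against 3.01 in gland 1 and 3.02 in gland 3. The gland limit was therefore set mostly by gland 2, and without it 432 probes met the rule, all 72 members among them. IR-3W tumor 1 had stretched ratios, with a median of 5.81 over the probes methylated in the glands against 2.46 to 4.07 in the other tumors, and had 0 low calls, so leaving it out changed no count of members or calls. The medians of spontaneous tumors 4, 5 and 7 were the lowest, at 2.59, 2.72 and 2.46, which places their probes nearer to the limit of 0.5. These tumors were scanned on the same day and had 7, 5 and 8 of the 26 low calls of the spontaneous group. IR-7W tumor 4, also scanned on that day, had a median of 3.16 and 1 low call. The part of the scan day was not tested. A low ratio was measured only where the signals were. Of 92 low calls, both channels were well above background in 58 (63.0%), Cy5 alone was not in 8, neither channel was in 24 (26.1%), and 2 fell on spots that the scanner marked as outliers. Over all pairs of a gland-methylated probe and a tumor, both channels were well above background in 98.6% and neither in 0.157%. Where Cy5 alone was not well above background the ratio is an upper bound, and where neither was it has no measured value.

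Most members were low in a single tumor. Of the members, 56 were low in 1 tumor, 12 in 2, 4 in 3 and 0 in 4 or 5. IR-7W tumors carried 52 low calls in 33 islands, spontaneous tumors 26 in 21 islands and IR-3W tumors 14 in 10 islands. Members low in a single group numbered 38 for IR-7W, 17 for the spontaneous tumors and 7 for IR-3W, while 10 were low in tumors of more than 1 group and 0 in all 3 groups. The calls came from 6 of 7 IR-7W tumors, 6 of 7 spontaneous tumors and 4 of 7 IR-3W tumors, and 5 tumors had none (IR-3W 1, 3 and 6, IR-7W 7 and spontaneous 2).

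The order of the groups changed when single arrays were left out. IR-7W tumor 6 alone had 30 low calls in 19 islands, 27 of them with both channels well above background. The other IR-7W tumors had 0 to 9, the spontaneous tumors 0 to 8 with a median of 4, and the IR-3W tumors 0 to 9 with a median of 1. Without IR-7W tumor 6, the members numbered 47 and the IR-7W low calls 22, against 26 in the spontaneous tumors. Without normal gland 2, the spontaneous tumors had 341 low calls and the IR-7W tumors 299. Counting only calls with both channels well above background gave 34 calls in IR-7W, 17 in the spontaneous tumors and 7 in IR-3W. IR-7W tumor 6 gave 27 of the 34. The median ratio of IR-7W tumor 6 over gland-methylated probes, 3.56, was close to that of IR-7W tumor 5 on the same slide, 3.58, which had 4 low calls. The other tumors scanned on that day, IR-3W 1 and 6 and spontaneous 1 and 2, had 0, 0, 1 and 0. With normexp background correction, which models the background, and an offset of 50 added to both channels, 1 of the 72 members met the rule. Of the 30 calls of IR-7W tumor 6, 0 remained. The limits were kept, while the median over gland-methylated probes in this tumor was 2.38 with normexp against 3.56 without. The part of these smaller ratios in the lost members and calls was not tested. No p is given for the counts of members and calls, since the probes were chosen on the same values.

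**Figure D1:**
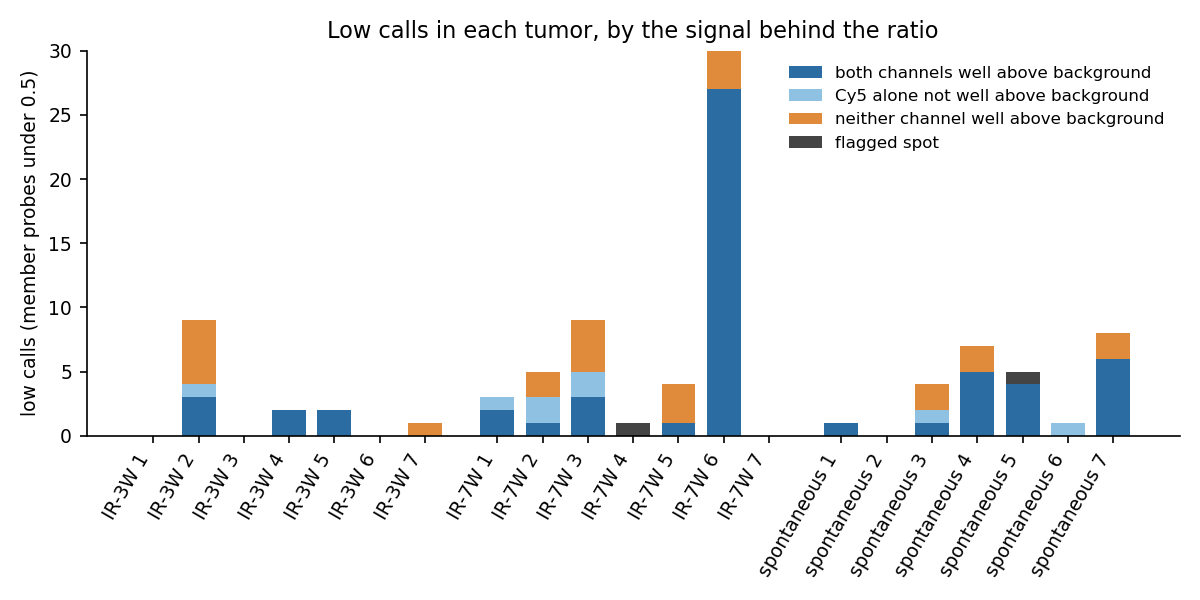
Low calls (member probes with a centered log2 ratio under 0.5) in each of the 21 tumors. Bar height is the number of calls and color the signal behind the ratio. IR-7W tumor 6 stands at 30 calls, 27 of them measured in both channels, and no other tumor passes 9.

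The members carried less methylation signal in the glands than the remaining methylated probes, and varied more among tumors. Their gland mean had a median of 2.77, against 3.44 for the 8367 other gland-methylated probes, and their median over tumors was 2.30 against 3.49. The SD over tumors had a median of 1.00 at members and 0.72 at the others. The choice of low values bears on all 3 differences. The 25 members low in IR-7W tumor 6 alone were intermediate in many other tumors as well. Their medians over the other tumors centered on 1.97, below a gland mean of 2.81, and the next-lowest tumor was under 1 at 16 of them. The 5 members low in IR-3W tumor 2 alone differed in this, since the next-lowest tumor was at 1.14 or higher at each of them. Members lay on 18 chromosomes and were on neither 11 nor 13. The largest share of gland-methylated probes that were members was 2.45% on chromosome 4 (8 of 326). Most of these 8 had no call with both channels well above background.

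**Figure D2:**
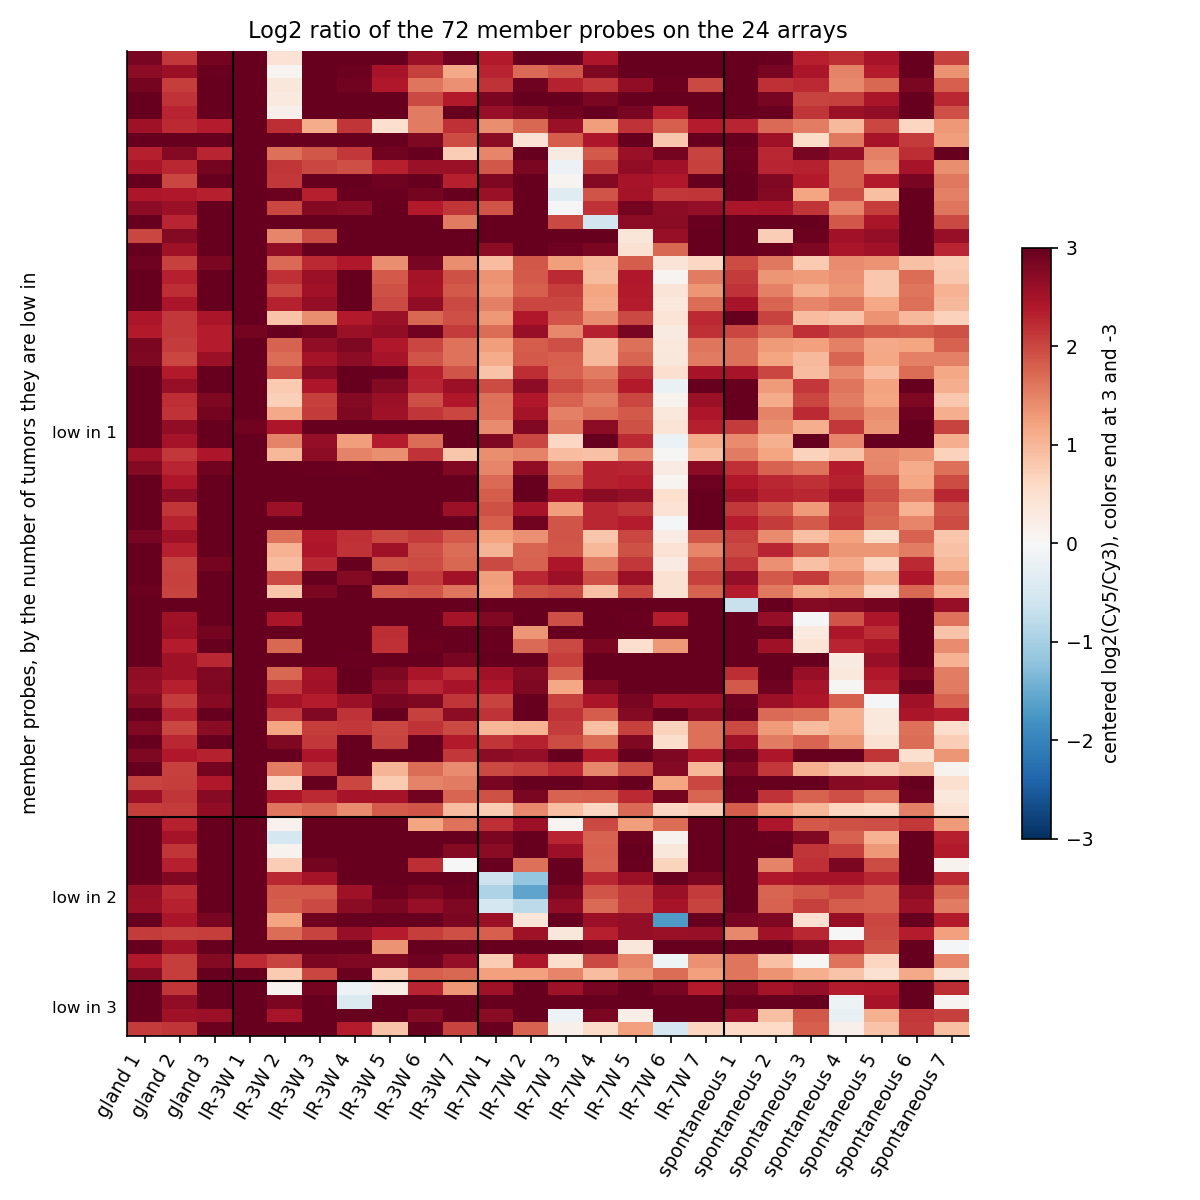
Centered log2(Cy5/Cy3) of the 72 members (rows) on 3 normal glands and 21 tumors (columns), ordered by the number of tumors they are low in. Red is methylated, white near 0 and blue below 0, and colors end at 3 and -3. The pale block is IR-7W tumor 6, IR-3W tumor 1 is dark throughout, and gland 2 is the palest gland.

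Whether neighboring probes agree depended on the signal behind the call. A neighbor was the nearest gland-methylated probe that did not overlap the member and lay within 500 bp, at a median distance of 105.5 bp. Sonicated fragments span such distances, so neighbors share fragments and are not independent. Of 60 members with a neighbor, 76 low calls could be read this way. The neighbor was under 0.5 in the same tumor in 20 of 76 calls (26.3%) and under 1 in 40 (52.6%). Most of these 20 neighbors were themselves members low in that tumor, so the same pair of probes could count from both sides. IR-7W tumors 1 and 2, from 1 rat, gave 3 of the 20 each. The shares are therefore descriptions. In tumors where the member was not low, the same neighbors were under 0.5 in 9 cases (0.760%) and under 1 in 37 (3.13%). Without IR-7W tumor 6, the neighbor was under 0.5 in 11 of 51 calls (21.6%) and under 1 in 19 (37.3%). At distances of 600 to 2000 bp there were 4 calls with a gland-methylated probe, and 0 of them had a low neighbor.

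Calls with both channels well above background mostly had neighbors under 1. In this class 35 of 43 neighbors were under 1, 17 of them under 0.5, with a median of 0.60 where the glands had 2.85, and 5 stayed over 2. IR-7W tumor 6 gave 21 of the 35 and 9 of the 17, and without it 14 of 21 neighbors were under 1, 8 of them under 0.5, and 4 were over 2. Calls with neither channel well above background did not. There 0 of 24 neighbors were under 0.5, 2 were under 1 and 22 were over 2, with a median of 3.35 in the low tumor and 3.50 in the glands. Both neighbors of the marked spots were over 2, and of 7 calls with weak Cy5 alone 3 had a neighbor under 0.5 and 3 a neighbor over 2. Of the 16 members with a call measured in neither channel, 11 (68.8%) were the first or last probe of their island, against 31.3% of other gland-methylated probes. The part of weak hybridization in these calls was not tested.

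**Figure D3:**
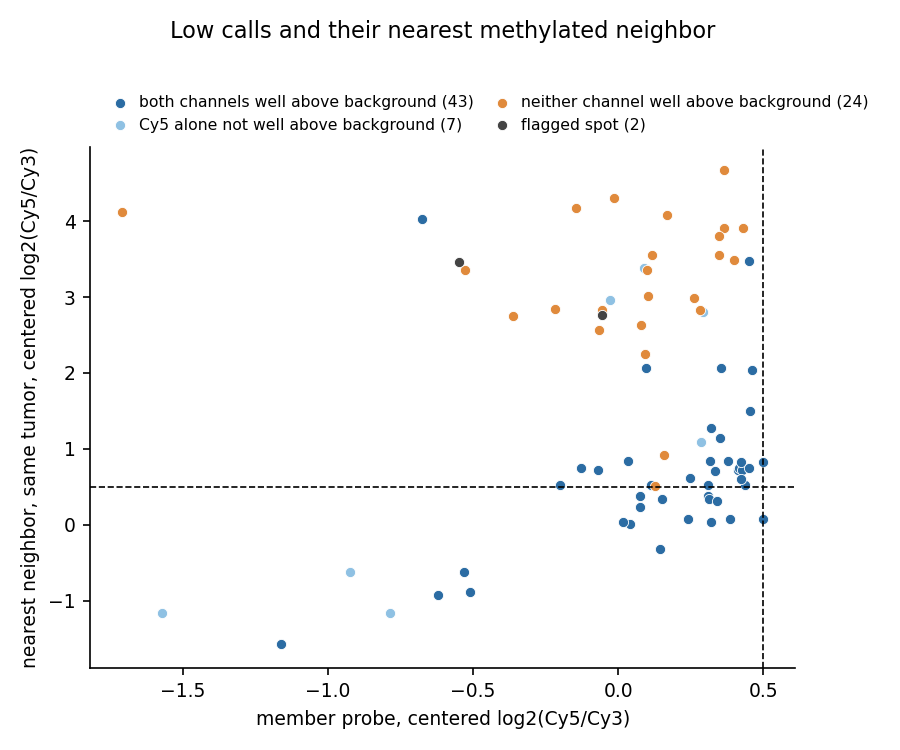
Each point is a low call, with the member's centered log2 ratio on the x axis and that of its nearest gland-methylated neighbor in the same tumor on the y axis. Dashed lines mark 0.5 and color the signal class, with the number of calls in brackets. Calls measured in both channels sit mostly with neighbors under 1, and calls measured in neither sit with neighbors over 2 in 22 of 24 cases.

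Whole islands showed the same split. The 92 calls formed 72 pairs of an island and a tumor, and 51 pairs held another gland-methylated probe. The median of these other probes was under 1 in 18 pairs, from 1 to 2 in 5 and over 2 in 28. The low calls themselves, which the rule put under 0.5, are left out of the counts that follow. Where at least 1 call was measured in both channels, 37 of 61 other gland-methylated probes of the island were under 1 in that tumor and 13 were over 2. Where every call was measured in neither channel, 2 of 77 were under 1 and 71 were over 2. In IR-7W tumor 6, 10 islands with a call measured in both channels held 23 other gland-methylated probes, and 22 of these were under 1, while in the other tumors 0 to 6 of the same 23 were. These islands were chosen on IR-7W tumor 6, so its contrast with the other tumors is a description. Without that tumor, 15 of 38 other probes were under 1 and 12 were over 2 where a call was measured in both channels.

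The island with the most members was chr12:38155524-38155995 on rn4, with 8 probes, 6 of them methylated in the glands and 5 of them members. The mean of the 5 members was 3.05, 2.37 and 3.37 in the 3 glands and 0.23 in IR-7W tumor 6. The rule put every other tumor at 0.5 or higher at these members. Among the means of the other tumors the lowest was 1.26, the median 2.36 and the highest 3.50. Every probe of the island was lower in IR-7W tumor 6 than in any other tumor, from -0.44 to 0.73, while Cy3 at 4 of the members was 0.21 to 0.50 above the gland mean on the log2 scale. At the fifth, chr12:38155902-38155946, Cy3 was at -0.73, lower than in any other tumor, where the next was at -0.68. A probe at chr12:38157705-38157749, beyond the end of the island, was at 0.50 in the same tumor, just outside the limit, where the member at chr12:38155756-38155800 was just inside it, also at 0.50.

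This island also separated the spontaneous from the IR-3W tumors. The 5-probe mean ran from 3.05 to 3.50 in IR-3W with a median of 3.22, from 1.26 to 2.32 in the spontaneous tumors with a median of 1.94, and from 0.23 to 2.99 in IR-7W with a median of 2.35. The IR-3W values overlapped with neither the spontaneous nor the IR-7W values, and IR-7W overlapped with the spontaneous tumors. As mean and SD over 7 tumors each, IR-3W stood at 3.23 ± 0.18, the spontaneous group at 1.93 ± 0.37 and IR-7W at 2.05 ± 0.93. In limma with Benjamini-Hochberg adjustment over 93024 probes, 8 probes (0.0086%) differed between spontaneous and IR-3W tumors at an adjusted p under 0.05. Of these, 6 were lower in the spontaneous tumors (0.00645%), and all 6 lay in this island, where they share fragments and count as 1 locus. They included 4 of the 72 members, lower by 1.26 to 1.36 on the log2 scale with adjusted p from 0.0229 to 0.0397. The fifth member there, at chr12:38155902-38155946, had a difference of -1.31 and an adjusted p of 0.115. IR-7W tumor 6, the only tumor that made these probes members, takes no part in that comparison. Over all probes the split by direction changed with the setting. With scan day as a block, 63 of 73 called probes were higher in the spontaneous tumors, and with arrays scaled to a common range 16 of 16 were.

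The call at the chromosome 12 island did not hold under several settings. With normexp background correction 0 of the 5 members passed, with differences of -0.73 to -0.95 (adjusted p 0.950), and with arrays scaled to a common range 0 passed, with differences of -0.88 to -0.91 (0.142 to 0.200). Leaving out IR-3W tumor 1, 2, 3 or 6 or spontaneous tumor 2, 5 or 7 also left 0, with differences between -1.21 and -1.39. With 1 tumor per rat 1 of the 5 passed, as by the methods' t-test after adjustment, and with all 24 arrays in the fit 0 did (adjusted p 0.167 to 0.188). With scan day as a block, 4 passed. Among tumors scanned on the same day, IR-3W 1 and 6 were at 3.50 and 3.45 and spontaneous 1 and 2 at 2.32 and 2.06, and on another day IR-3W 3, 4 and 5 were at 3.25, 3.08 and 3.22 and spontaneous 6 at 1.26. On the slide shared by IR-3W tumor 5 and spontaneous tumor 6 the values were 3.22 and 1.26. It was the only slide that held tumors of both groups, so a fit with slide as a block rests on 1 tumor against 1. In that fit the differences were -1.81 to -2.22 and 0 of the 5 members passed (adjusted p 0.630 to 0.652), which with a single pair says nothing about whether the call holds. The direction was the same under each of these settings.

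**Figure D4:**
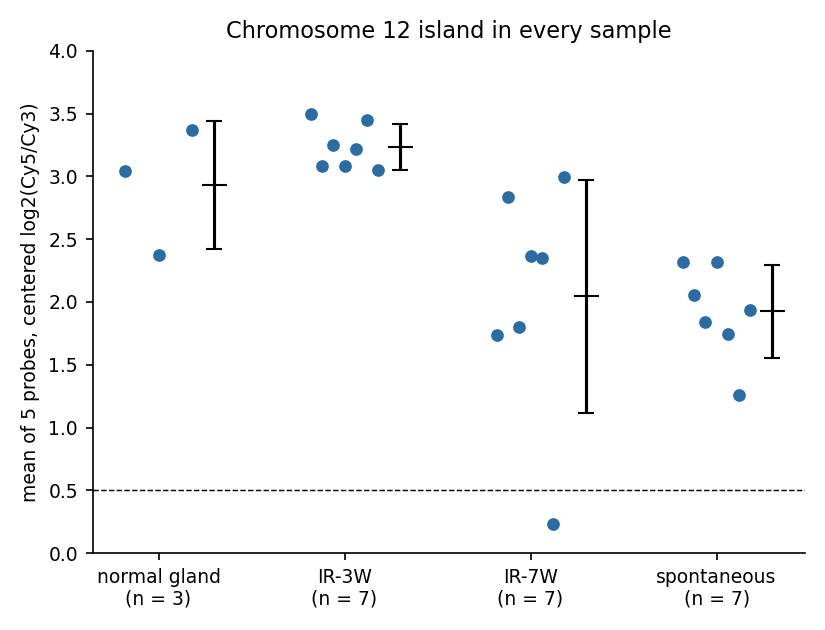
Mean centered log2(Cy5/Cy3) of the 5 members of the chromosome 12 island in every sample. Points are samples, the black bar beside them the group mean with its SD, and the dashed line the limit of 0.5. IR-3W tumors lie at 3.05 or higher, spontaneous tumors at 2.32 or lower, and IR-7W tumor 6 at 0.23.

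No other member passed the test between tumor groups. Between IR-7W and IR-3W, limma called 0 of 93024 probes (0%) and 0 members, with 6045 probes (6.5%) at an unadjusted p under 0.05 and 0 called by the methods' t-test after adjustment. At that unadjusted level were 32 of the 72 members, 31 of them lower in IR-7W, and 190 of the 8439 gland-methylated probes (2.25%). The latter share was 4.55% without IR-3W tumor 2, 1.32% without IR-7W tumor 1, 1.39% without IR-7W tumor 4 and 1.37% without IR-7W tumor 6. IR-7W tumor 6 alone brought 25 of the 72 members below the limit, which lowers the IR-7W mean, so their share is not set against the others as a result, and without IR-7W tumor 6 the members at that level numbered 19. The median difference of members was -0.81, and -0.69 without IR-7W tumor 6. It too is a description, since members were chosen on low tumor values. The median difference was -0.43 over gland-methylated probes and -0.026 over all probes. Without IR-3W tumor 1 the medians were -0.43 for members and -0.11 for gland-methylated probes, and with slide as a block -0.35 and -0.0089, the latter fit resting on the 4 slides that held a tumor of each group. Between spontaneous and IR-7W tumors limma called 0 probes (0%) and 0 members, with 3652 probes (3.93%), 126 gland-methylated probes (1.49%) and 1 member at an unadjusted p under 0.05, and 0 called by the methods' t-test. Leaving out 1 tumor at a time gave 0 to 6 members at that level. The share of gland-methylated probes then ran from 0.64% without spontaneous tumor 7 to 27.2% without spontaneous tumor 6, and was 10.6% without spontaneous tumor 1. Between spontaneous and IR-3W tumors 29 members reached that level, 0 of them higher, as did 17.4% of gland-methylated probes and 10.2% of all probes. Spontaneous tumors were low at 24 of the 72 members, so the members' count and median are descriptions and are not set against those of the other probes. The share of gland-methylated probes at that level moved by over 1.5 times when any 1 tumor other than IR-3W 3, 4 or 6 was left out, from 3.21% without spontaneous tumor 7 to 60.8% without spontaneous tumor 6, while the members ran from 23 to 37. The median difference was -0.84 for members, -0.73 for gland-methylated probes and -0.054 for all probes. Without IR-3W tumor 1 it was -0.53 for members and -0.40 for gland-methylated probes. With arrays scaled to a common range these medians were -0.48 and -0.15. With slide as a block, a fit that rests on 1 tumor against 1, they were -0.075 and 0.32. The IR-3W tumors enter both comparisons. Each comparison measures the spread between these tumors, 2 pairs of which shared a rat. Between tumors and glands limma called 21171 probes (22.8%), 1 of them a member, a contrast that the rule used.

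IR-7W tumor 6 carried further islands of the same kind. At chr9:37852084-37852345, where all 4 probes were methylated in the glands, the mean of 3 members was 3.17, 2.33 and 3.02 in the glands and 0.075 in this tumor. Other tumors ranged from 0.87 (IR-3W 2) to 5.16 (IR-3W 1), so none overlapped with it. At chr2:175940970-175941737, with 10 probes and 3 members, the glands were at 3.32, 2.33 and 3.29 and IR-7W tumor 6 at 0.26. The other tumors began at 0.92 (spontaneous 5), and 9 of the 10 probes were lowest in IR-7W tumor 6, including 6 that fell short of the gland limit. At chr10:58903668-58904317 the mean of 2 members was 2.86, 2.37 and 3.19 in the glands, 0.14 in IR-7W tumor 6 and 0.56 in spontaneous tumor 3, which was low at 1 of the 2 members. All 8 probes of that island were under 1 in IR-7W tumor 6, and 6 of 8 in spontaneous tumor 3. Relative to the gland mean, Cy3 at the members in IR-7W tumor 6 lay from 0.067 to 0.21 on the log2 scale at the chromosome 9 island, from -0.39 to 0.40 at the chromosome 2 island and from 0.16 to 0.42 at the chromosome 10 island, and at none of them was it lower than in every other tumor.

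Also in IR-7W tumor 6, the member at chr10:84986695-84986740 had a gland mean of 2.96 ± 0.45 (SD, n = 3) and was at -0.18 in the tumor, and all 3 probes of its island were under 0.5 there. Another member lay in the island chr10:85031003-85033156, 44.1 kb farther on, and was low in the same tumor alone. At chr19:16340311-16340618 all 3 probes were methylated in the glands and under 0.5 in IR-7W tumors 3 and 6 and spontaneous tumor 4. Only the probe at chr19:16340574-16340618 was a member, at 0.15, -0.51 and 0.15 in these tumors and 2.11, 2.15 and 2.93 in the glands, because the other two were low in 7 and 9 tumors. This island was chosen for description after its values were seen, as were the members at chr4:149504450-149504500 and chr19:50825799-50825843, also low in 3 tumors.

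**Figure D5:**
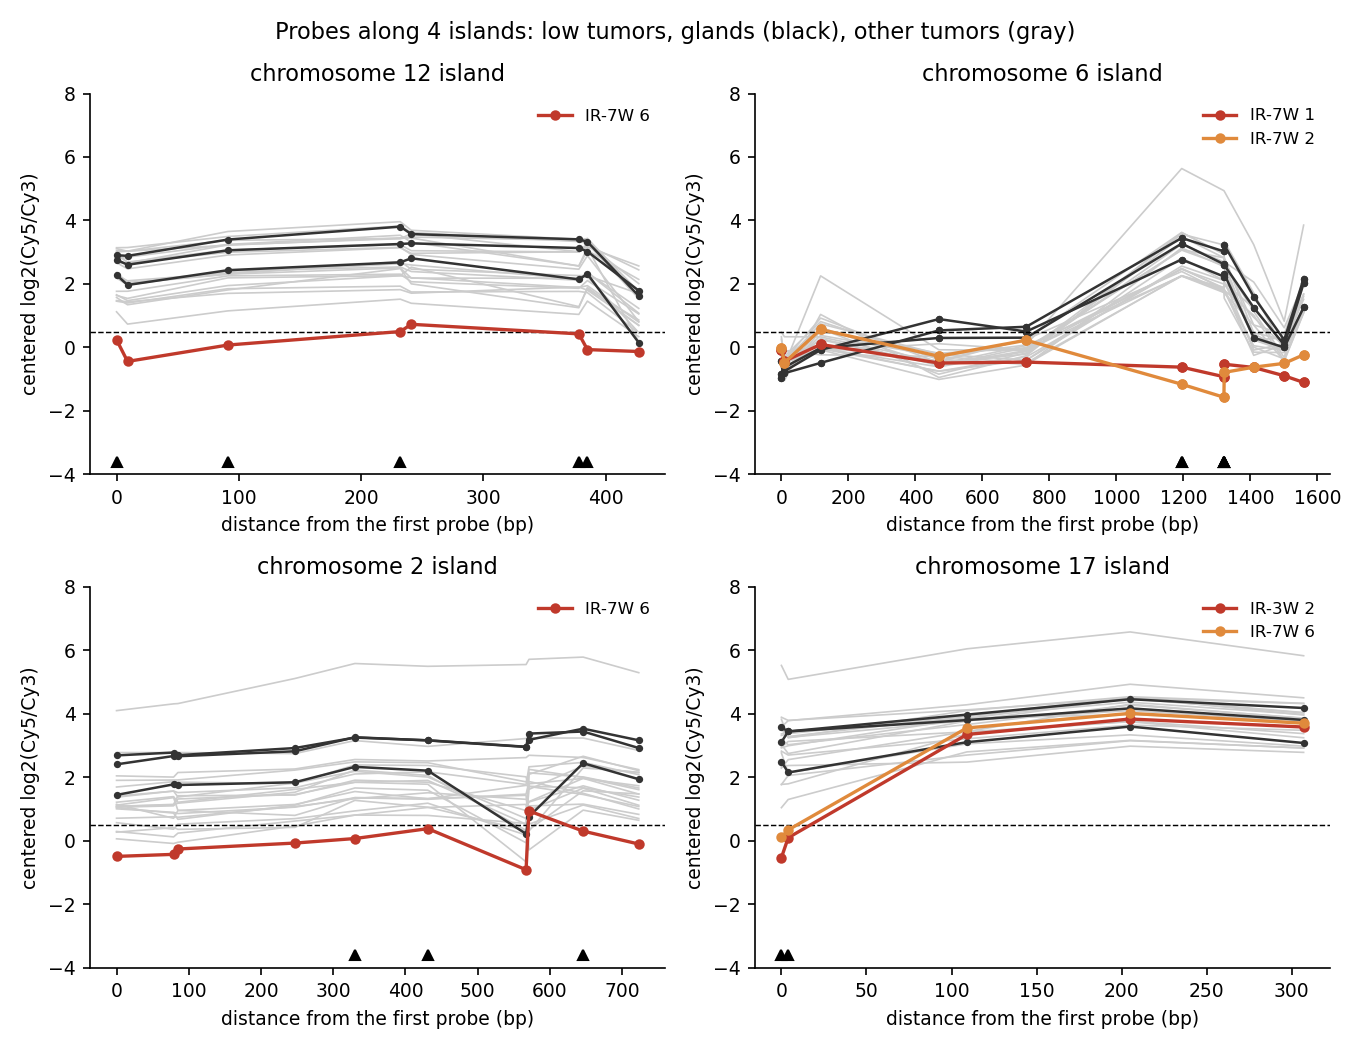
Centered log2(Cy5/Cy3) of every probe along 4 islands, against distance from the first probe. Colored lines are the tumors with low calls, black lines the 3 glands, gray lines the other tumors, triangles the members, and the dashed line is 0.5. On chromosomes 12 and 2 the low tumor runs below the glands along the island, apart from 1 probe on chromosome 2, on chromosome 6 both low tumors lack the peak that glands and other tumors have, and on chromosome 17 only the overlapping end probes are low.

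A pair of tumors from 1 rat shared an island. At chr6:91336462-91338065 the mean of 3 members was 2.83, 2.44 and 3.23 in the glands, -0.69 in IR-7W tumor 1 and -1.17 in IR-7W tumor 2. The rule put the other 19 tumors at 0.5 or higher at these members, and their means ranged from 1.84 to 5.17 with a median of 2.32. All 3 low calls of IR-7W tumor 1 were at this island, and IR-7W tumor 2, with 5 low calls, shared all 3. Relative to the gland mean, the mean Cy3 over the members was -0.72 and -0.66 on the log2 scale in these tumors, lower than in the other 19, which reached down to -0.54. Over all 11 probes of the island the median Cy3 difference was -0.18 and -0.24, and over 101 probes within 1 Mb it was -0.066 and 0.022. Cy5 was not well above background in 3 of the 6 calls, whose ratios are upper bounds. The part of the lower Cy3 in the low ratio was not tested. IR-3W tumors 6 and 7, also from 1 rat, had 0 and 1 low calls and shared none.

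Spontaneous tumor 4 was low at chr16:80900160-80901059, where 3 of 9 probes were methylated in the glands, all 3 of them members, and the median gland mean over the 9 was 1.35. The mean of the 3 members there was 2.47, 2.30 and 2.55 in the glands, 0.12 in spontaneous tumor 4 and 1.09 in IR-7W tumor 3, which was low at 1 of them. In spontaneous tumor 4, 8 of the 9 probes were under 1 and 4 were below every tumor without a low call there, and in IR-7W tumor 3 these counts were 2 and 3. Relative to the gland mean, the mean Cy3 over the 3 members was -0.44 in the former and -0.81 in the latter.

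IR-3W tumor 2 had 9 low calls, of which 3 were measured in both channels. At chr4:177873593-177874101 the mean of 2 members was 3.22, 2.12 and 3.28 in the glands and 0.31 in this tumor, with the other tumors at 1.75 or higher. At the member chr4:177874053-177874101 Cy5 was not well above background in this tumor, so its ratio and the mean are upper bounds. All 7 probes of the island were lowest in IR-3W tumor 2, from 0.28 to 1.23. At chr5:159128878-159128937 the member read 3.89, 2.28 and 3.29 in the glands and 0.16 in IR-3W tumor 2, and although neither channel was well above background, its neighbor was at 0.91 and all 4 probes of the island were lowest in this tumor. At chr4:61332678-61332729 the member read 0.092 in IR-3W tumor 2, with neither channel well above background, while the other methylated probes of the island had a median of 3.17.

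A few members stood alone as methylated probes in islands that were otherwise unmethylated. At chr7:74341264-74341308 the glands were at 3.13, 2.14 and 3.01, and IR-3W tumors 2, 4 and 5 at 0.095, -0.15 and 0.23, with both channels well above background. Relative to the gland mean, Cy3 at this probe was -0.46, -0.90 and -0.55 on the log2 scale in these tumors, lower than in the other 18, which reached down to -0.40, and its part in the low ratio was not tested. The other 18 tumors ran from 1.31 upward, and it was the only member low in IR-3W tumors alone that was low in more than 1. The 6 probes of its island had a median gland mean of -0.47, so no gland-methylated neighbor could be read. At chr19:50825799-50825843 the glands were at 3.79, 2.67 and 3.35, IR-3W tumor 4 was at -0.43 and spontaneous tumors 4 and 7 were at -0.15 and 0.079, again with both channels measured. The other tumors were at 2.48 or higher, and the 19 probes of the island had a median gland mean of -0.75.

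Other members stood out by low ratios that rest on weak or marked spots. The ratio of chr4:58718028-58718076 was -1.71 in IR-7W tumor 6 and 0.36 in IR-7W tumor 2. Neither channel was well above background, so these have no measured value, and the neighbor was at 4.13 and 4.67 in these tumors. The 2 members that overlap at the end of the island chr17:19372912-19373267 were low in IR-3W tumor 2 and IR-7W tumor 6, with means of -0.22 and 0.23, and the 3 other methylated probes had medians of 3.59 and 3.71. Relative to the gland mean, their Cy3 was -1.79 and -1.64, lower than in any other tumor. At chr4:149504450-149504500 the ratio was -0.15 in IR-7W tumor 3, 0.17 in IR-7W tumor 5 and -0.22 in spontaneous tumor 4, with neither channel well above background and neighbors at 4.17, 4.08 and 2.84. The member at chr14:81765993-81766052 was at -0.55 in IR-7W tumor 4 on a spot marked as an outlier, where Cy3 was 9.45 above the gland mean on the log2 scale and the neighbor was at 3.46.

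The 3 islands named for the spontaneous tumors alone were each low at a single probe among the methylated ones. The probe at chr4:56025719-56025774 was at 4.17, 3.09 and 4.01 in the glands and -0.68 in spontaneous tumor 1, with both channels well above background and the other tumors at 2.60 or higher. Its neighbor was at 4.02 in that tumor, and Cy3 at the probe was 1.34 above the gland mean, against at most 0.60 in the other tumors. In spontaneous tumor 3, chr3:7194392-7194451 was at -0.058 and chr8:107705399-107705444 at 0.40, with neither channel well above background, so with no measured fall, and neighbors at 2.83 and 3.48. The part of the Cy3 signal at these spots was not tested.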

How the data were processed

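Each of 24 arrays held 1 sample. The authors deposited scanner output of Agilent Feature Extraction 10.7.3.1, whose spot intensity values had been background-subtracted, spatially detrended and scaled by a linear dye factor, and a matrix of log2 ratios, which the authors derived from the same arrays and which served as an alternative. The log2 of the Cy5 over the Cy3 processed signal was centered on the median of non-control probes, with no further normalization, which hides any change common to a whole array. The scanner's flags gave the signal classes. Members and lists were chosen with earlier results of these data known. Groups were compared with limma 3.58.1 (R 4.3.3, Benjamini-Hochberg over 93024 probes), fitted on the tumors compared; both steps were tested on simulated data. Counts used Python 3.11.15, numpy 2.4.6 and pandas 2.3.3. Islands were named as those with the most members low in 1 tumor (8), the 3 largest falls per group among members low in that group alone (1 per island, leaving out islands already named), and islands low in both tumors of 1 rat. The rules for probes with no other probe within 1000 bp and for members low in 5 tumors found none. Alternatives changed the limits, centering, scaling, background correction, probe filter, neighbor distance, blocks and samples, and each array was left out in turn. The number of arrays limits the precision. The authors' LogOdds, hormone receptor data, gene expression and bisulfite sequencing were not used here.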

Additional observations from a re-analysis of the deposited data

Results flagged for a closer look

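Values of a tumor far from the others of its group of 7 (Dixon's test) arose in 13 of 69 groups tested. Chance flags about 1 in 20 groups, and the choice of members, which need a low tumor, favors such flags at the islands. IR-7W tumor 6 had 30 low calls, with the next tumor at 9, and 27 calls measured in both channels, with the next at 3. IR-3W tumor 2 had 9 low calls, with the next at 2. The median over gland-methylated probes was 5.81 in IR-3W tumor 1, with the next at 3.75.

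At named islands, the mean of the members was far below the group in IR-7W tumor 6 on chromosome 9 (0.075, next 1.66), IR-7W tumor 4 on chromosome 14 (-0.55, next 1.99), spontaneous tumor 1 on chromosome 4 (-0.68, next 2.60) and IR-3W tumor 4 at the chromosome 19 island that starts at 50824705 (-0.43, next 2.83). It was far above the group in IR-3W tumor 1 on chromosome 6 (5.17, next 3.13), chromosome 2 (5.63, next 3.13), chromosome 4 at 56025719 (5.68, next 4.16) and chromosome 3 (5.17, next 3.39), and in spontaneous tumor 6 on chromosome 10 (3.66, next 1.87).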

How the results depend on the processing

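The counts depend on the limits. The members numbered 254 with a gland minimum of 1.5 and 16 with 2.5, 26 with a tumor maximum of 0 and 229 with 1, 16 when low in at least 2 tumors, 114 with arrays scaled to a common range, 46 with Cy3 well above background on all arrays and no marked spot, and 2690 with normexp. Under normexp 2686 of the calls lay in IR-3W tumor 7, whose median over gland-methylated probes dropped to 0.19. Without that tumor normexp gave 38 members, with 19, 14 and 23 calls in IR-3W, IR-7W and spontaneous tumors. With or without it 1 of the 72 members remained, and 0 of the 30 calls of IR-7W tumor 6 did. A remaining call also needed every gland over 2 on the normexp scale. Whether the glands or the tumor missed the limit was not separated, and the part of the offset of 50 was not tested. In the same order of settings the low calls were 78, 2, 4, 76, 8, 22, 7 and 2705 in IR-3W, 171, 12, 21, 147, 18, 84, 36 and 14 in IR-7W, and 171, 8, 13, 142, 10, 48, 15 and 23 in the spontaneous tumors. IR-3W had 23 calls with the series matrix. Of alternatives added after seeing the data, calls with both channels well above background left 48 members and 7, 34 and 17 calls in IR-3W, IR-7W and spontaneous tumors. IR-7W tumor 6 gave 27 of the 34. Leaving out marked spots left 70 members. IR-7W had the most calls, or shared the highest number, under each of these settings except normexp.

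Neighbors under 0.5 made up 0% of low calls with a gland minimum of 2.5, 40.5% with a tumor maximum and neighbor limit of 1, 52.6% with a neighbor limit of 1 alone, 68.4% with normexp, 46.5% under the Cy3 filter, 39.5% for calls with both channels well above background and 0% at 600 to 2000 bp. Allowing overlap gave 27 of 76 calls.

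Leaving out 1 array in turn gave 47 (without IR-7W tumor 6) to 432 members (without gland 2). IR-3W calls ran from 5 (without IR-3W tumor 2) to 125 (without gland 2), with 25 without gland 1. IR-7W calls ran from 22 (without IR-7W tumor 6) to 299 and spontaneous calls from 22 to 341, both highest without gland 2. IR-7W did not have the most calls without gland 2 or without IR-7W tumor 6. Neighbor shares ran from 21.6% to 31.5%.

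For spontaneous against IR-3W tumors, 4 called members became 0 with the replicate block, with slide as a block (a fit that rests on 1 tumor against 1), with all 24 arrays in the fit, with normexp and with scaled arrays, 1 with 1 tumor per rat, 1 by the methods' t-test, and 0 to 4 without 1 tumor. The same-numbered tumors are not paired (5 of 21 pairs correlated over 0.1, from -0.27 to 0.50), and the replicate block changed no other count of called members. Between IR-7W and IR-3W and between spontaneous and IR-7W tumors 0 members were called under every alternative run. Over all probes, IR-7W against IR-3W gave 128 calls with scaled arrays and 82 without IR-7W tumor 7. The fall at the 20 named islands kept its direction under autosomal centering, scaling, series matrix and normexp, but under normexp 14 of the 20 moved by more than the gland SD and falls ran down to 0.47, against 2.31 or more under the other settings. The cause of these changes was not tested.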
